A study of Mus musculus with 6 samples.

Results

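Transcripts of 4 enzymes, Gamt, Gpi1, Gsta4 and Prdx2, were followed in mouse kidney cortex. They were measured by 4 of the 50 mRNA probes on an array made for circular RNAs (circRNAs). The rest of the array held 14236 circRNA probes and controls. The Gamt, Gpi1 and Gsta4 probes were taken by probe name and the Prdx2 probe by its RefSeq transcript. Members were chosen from earlier results on these same arrays, in which the difference between normal and injured cortex was already known. That difference is therefore given as a description, without a test. Cortex from male mice formed both groups, 3 arrays from normal kidney and 3 from kidney with diabetic kidney injury (DKI). Strain, age, the way diabetes was induced and its duration are not given in the sources used here. The labels also carry protocol text on liver tumour surgery and a design text on a human array, so the groups rest on the sample titles. Nothing in the labels says that the arrays of a group came from separate animals.

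Gamt carries out the last step of creatine synthesis, the methylation of guanidinoacetate, with S-adenosylmethionine as methyl donor. Gpi1 interconverts the phosphates of glucose and fructose and so serves both glycolysis and gluconeogenesis, and the kidney cortex is one of the gluconeogenic tissues of the body. Gsta4 is a glutathione transferase with a preference for hydroxynonenal and related aldehydes formed when lipids are oxidised. Prdx2 is a peroxiredoxin that reduces hydrogen peroxide with electrons from thioredoxin, and it is also abundant in red blood cells.

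Each probe had 10 spots on every array. All 240 member spots on the 6 arrays were well above background and 0 were saturated, and 15 flagged as outliers by the scanner software were left out. Levels below are mean log2 signals of the remaining spots minus the 75th percentile of the circRNA signal of the same array, and they compare 1 probe between arrays, not probes with each other. The standard deviation (SD) over the spots of a probe on 1 array ranged from 0.022 to 0.10. Spots share their array and are not replicates. In tissue RNA, fewer cells of a type and less RNA per cell cannot be told apart.

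DKI replicate 3 stood apart from the other arrays. Across circRNA probes it correlated with the others at r = 0.792 to 0.886, against 0.906 to 0.983 among the other 5 arrays, and these values run over probes, which are not replicates. Its bright-corner control spots had a median signal of 9317, against 33156 to 76690 on the other arrays. Differences and counts below are therefore also given without it.

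In creatine synthesis, Gamt scaled to the circRNA percentile was lower on every DKI array than on every normal array, while scaled to the negative control probes its mean difference was slightly positive (0.12). Its level was 1.29, 1.31 and 1.33 on normal replicates 1, 2 and 3. On DKI replicates 1, 2 and 3 it was 0.41, 0.79 and 0.74. Scaled to the circRNA percentile, the normal arrays lay almost on one line, with an SD of 0.019 (n = 3), the lowest of the 50 mRNA probes. The DKI arrays had an SD of 0.20 (n = 3). Scaled to the negative control probes, the SD was 0.19 in normal and 0.19 in DKI cortex. On the percentile scale the groups did not overlap, and the highest DKI level lay 0.50 below the lowest normal level. Single spots, which are not replicates, ran from 1.22 to 1.41 on normal arrays (27 spots) and from 0.35 to 0.90 on DKI arrays (28 spots). The mean was 1.31 in normal and 0.65 in DKI cortex, a difference of -0.66 (SE 0.25 from limma's fit over all mRNA probes), or 1.58-fold lower in DKI. Without DKI replicate 3 it was -0.71.

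**Figure D1:**
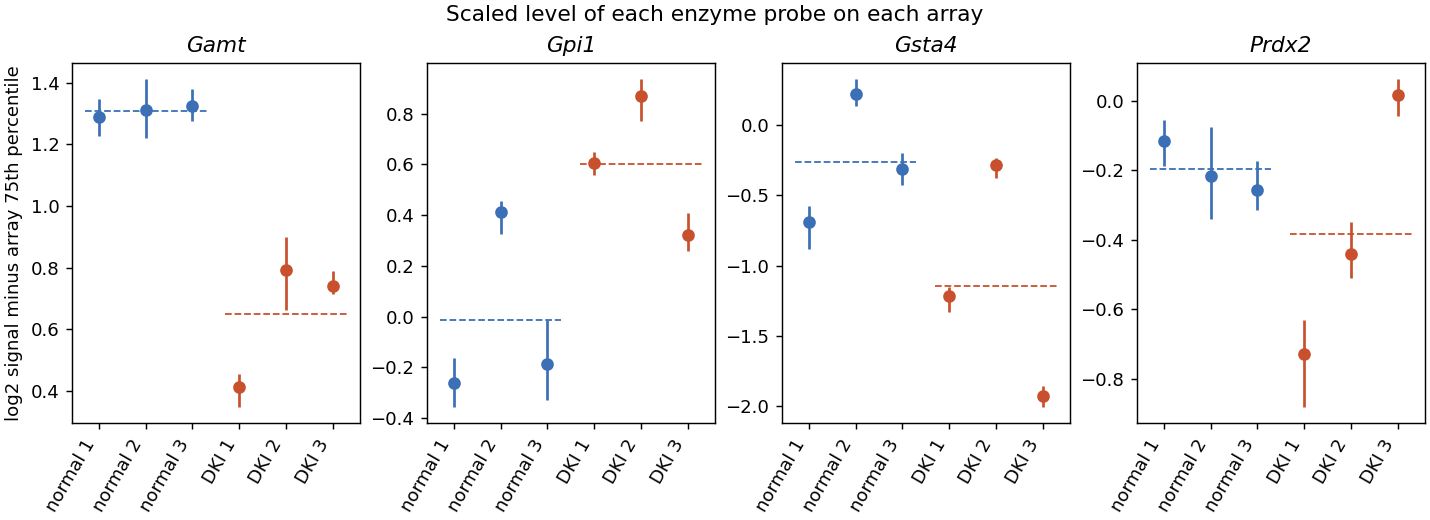
Scaled level of each probe on each array, as log2 signal minus the array's 75th percentile of circRNA signal, with 1 panel and its own axis per gene. Points are array means over spots, vertical lines run from the lowest to the highest spot, and dashed lines are group means (n = 3 arrays); on this scale Gamt is the one gene with all DKI arrays (0.41 to 0.79) clear of all normal arrays (1.29 to 1.33).

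The groups were apart for Gamt only after scaling to the bulk of the probes. In the scanner's arbitrary units, normal replicates 1 to 3 gave unscaled signals of 272, 330 and 242, and DKI replicates 1 to 3 gave 291, 274 and 154, so the groups overlapped. In the same order, the circRNA percentile used for scaling was 111.5, 132.6 and 96.7 for normal and 218.5, 158.6 and 92.3 for DKI. The unscaled difference was -0.27. Set against the mean log2 signal of the array's own negative control probes, Gamt was 4.37, 4.38 and 4.05 on normal replicates 1 to 3 and 4.19, 4.39 and 4.58 on DKI replicates 1 to 3. On that scale the groups overlapped and the direction turned, with means of 4.27 in normal and 4.39 in DKI cortex (0.12 higher in DKI, and 0.028 without DKI replicate 3). The mean of those control probes was itself lower in DKI after scaling, at -3.08, -3.06 and -2.72 on normal and -3.78, -3.60 and -3.84 on DKI arrays. Before scaling, that mean was 3.72, 3.99 and 3.87 on normal and 3.99, 3.71 and 2.69 on DKI arrays. Only DKI replicate 3 then lay far below the normal arrays. The change of sign for Gamt follows by arithmetic from the change of reference. The cause of the shift between the references was not tested. With each of 8 other ways of scaling or summarising the signal, the DKI levels of Gamt again lay below all normal levels.

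**Figure D2:**
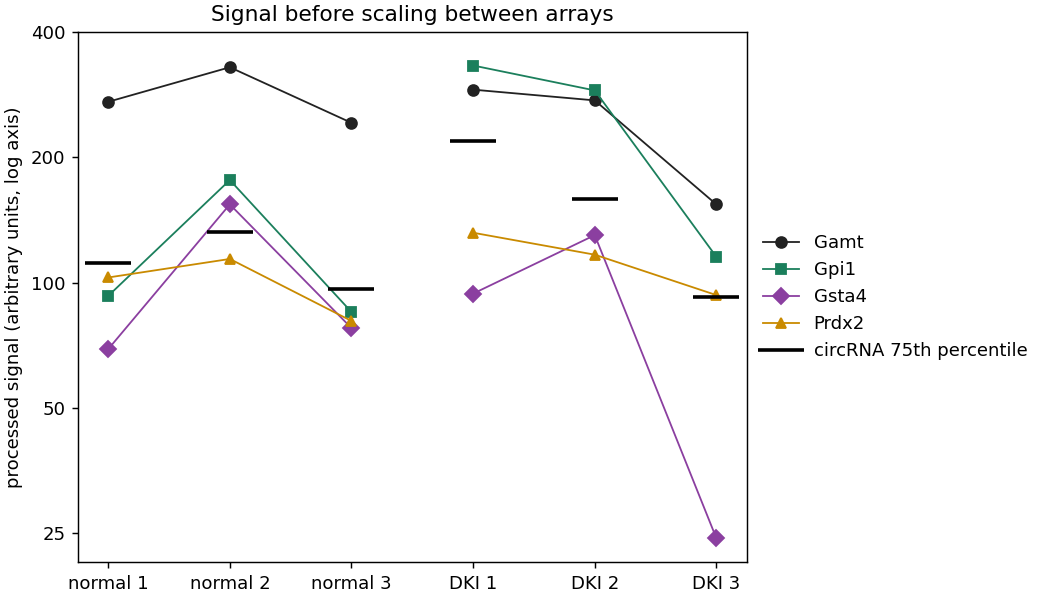
Processed signal of each probe before scaling, in arbitrary units on a log axis, by array; short black bars mark the 75th percentile of the circRNA signal used for scaling, and heights of different probes are not comparable. Gamt signals of both groups overlap here (242 to 330 in normal, 154 to 291 in DKI), and the percentile is highest on DKI replicate 1 (218.5) and lowest on DKI replicate 3 (92.3).

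In glucose metabolism, Gpi1 was higher on average in DKI cortex. Its level was -0.26, 0.41 and -0.19 on normal replicates 1, 2 and 3. The DKI arrays, in the same order, had 0.61, 0.87 and 0.32. The groups overlapped through a single normal array, replicate 2, which lay above DKI replicate 3. Normal cortex had a mean of -0.01 ± 0.37 and DKI cortex of 0.60 ± 0.27 (SD, n = 3 each), a difference of 0.61 (SE 0.30), 1.53-fold higher in DKI. Without DKI replicate 3 the difference was 0.75, and without normal replicate 2 it was 0.82. Before scaling, Gpi1 had signals of 92.9, 176.5 and 85.0 in normal and 332.8, 289.9 and 115.4 in DKI cortex, a log2 difference of 1.00. DKI replicates 1 and 2 were thus brighter than all normal arrays with or without scaling to the circRNA percentile, whereas DKI replicate 3 lay within the normal range both ways. Set against the negative control probes, Gpi1 was 2.82, 3.48 and 2.54 in normal and 4.39, 4.47 and 4.16 in DKI cortex. There the groups did not overlap, DKI replicate 3 included, and the difference was 1.40 (1.48 without that array). The control probes themselves were dim on DKI replicate 3. Their unscaled mean log2 signal was 2.69 there, against 3.71 to 3.99 on the other arrays. The place of that array on this scale therefore reflects low controls, since its unscaled Gpi1 signal was within the normal range.

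In aldehyde detoxification, Gsta4 had the widest spread of the 4 genes. Its level was -0.69, 0.22 and -0.31 on normal replicates 1, 2 and 3. DKI replicates 1, 2 and 3 had levels of -1.22, -0.29 and -1.93. DKI replicate 2 lay inside the normal range, and DKI replicates 1 and 3 lay below it. Means were -0.26 ± 0.46 for normal and -1.14 ± 0.82 for DKI cortex (SD, n = 3 each), a difference of -0.88 (SE 0.44), 1.84-fold lower in DKI. The size rested on the array that stood apart: without DKI replicate 3 the difference was -0.49, and DKI replicate 2 alone differed from the normal mean by -0.024. It was -0.51 with normexp background correction and -0.45 against normal replicate 1 alone, the normal array that shared a scan with the DKI arrays. On DKI replicate 3 the unscaled Gsta4 signal was 24.3, against 69.2 to 154.3 on the other 5 arrays. There it was 1.92 above the mean log2 signal of the negative control probes, against 2.40 to 3.32 elsewhere. Scaled to those control probes the groups overlapped and Gsta4 differed by -0.097, and by 0.25 without DKI replicate 3, opposite in sign.

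In peroxide defence, the direction for Prdx2 turned with the scaling, and scaled to the circRNA percentile its group means differed little. Its level was -0.12, -0.22 and -0.26 on normal replicates 1, 2 and 3. On DKI replicates 1, 2 and 3 it was -0.73, -0.44 and 0.02. The DKI arrays lay on both sides of the normal ones, replicates 1 and 2 below all of them and replicate 3 above all of them. The means were -0.20 ± 0.07 for normal and -0.38 ± 0.38 for DKI cortex (SD, n = 3 each), a difference of -0.19 (SE 0.28). That is less than the SD of the DKI arrays. Without DKI replicate 3 the difference was -0.39, and without DKI replicate 1 it was -0.016. Before scaling, Prdx2 varied less than the percentile that scaled it, with signals of 102.9, 114.0 and 80.9 in normal and 131.9, 116.8 and 93.4 in DKI cortex. The unscaled difference was 0.20, opposite in sign. Set against the negative control probes, Prdx2 was 2.97, 2.85 and 2.47 in normal and 3.05, 3.16 and 3.86 in DKI cortex. On that scale every DKI array lay above every normal array, by 0.60 on average and by 0.35 without DKI replicate 3. On DKI replicate 3 the unscaled Prdx2 signal lay within the normal range. The unscaled mean log2 signal of the control probes there was 2.69, against 3.71 to 3.99 on the other arrays. Over all alternatives with 6 arrays the difference for Prdx2 ran from -0.61 to 0.60. The lower end is the slide block, which rests on DKI replicate 1 against normal replicate 1 alone. The DKI array with the brightest circRNA percentile had the lowest scaled Prdx2 level and the one with the dimmest percentile the highest. Before scaling, the DKI arrays stood in the opposite order, with replicate 1 highest and replicate 3 lowest. The reversal is the arithmetic of subtracting the percentile.

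All mRNA probes together shifted with the scaling, and the 4 genes were read against that shift. The median difference of the 50 mRNA probes was -0.19 with scaling, 33 probes being lower and 17 higher in DKI, and 0.19 without scaling. Scaled to the negative control probes it was 0.59, and 46 probes were higher and 4 lower. Relative to this median the 3 choices give the same values by construction, since each shifts all probes of an array alike. Gamt differed from the median by -0.47, Gsta4 by -0.69, Gpi1 by 0.81 and Prdx2 by 0.0057. Prdx2 therefore sat at the middle of the mRNA probes. With normexp background correction and the 75th percentile these relative values were -0.26, -0.29, 0.70 and 0.077. They were -0.33 for Gamt, -0.11 for Gsta4, 1.13 for Gpi1 and -0.0084 for Prdx2 without DKI replicate 3. Among them Gsta4 had the third lowest difference and Gpi1 the third highest, and Gamt ranked as the seventh lowest. With DKI replicate 3 left out, Gamt ranked 6 and Gsta4 20 from the lowest, and Gpi1 ranked 6 from the highest. By limma's fit over all 50 probes, 0 passed an adjusted p of 0.05 (0% called), and 6 had an unadjusted p below it. The count was 13 without DKI replicate 3, 5 when scaled to the negative control probes, 1 with a replicate block and 1 without scaling. With scaling to the circRNA percentile and all 6 arrays, Gamt was the single member whose groups did not overlap. Of all mRNA probes, 9 (18%) were lower on every DKI array and 2 (4%) higher. Without DKI replicate 3, Gamt and Prdx2 were lower and Gpi1 higher without overlap, against 24 of the 50 probes lower and 8 higher. Fewer arrays make non-overlap easier to reach. Since the members were chosen with these values known, nothing is read from these shares.

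**Figure D3:**
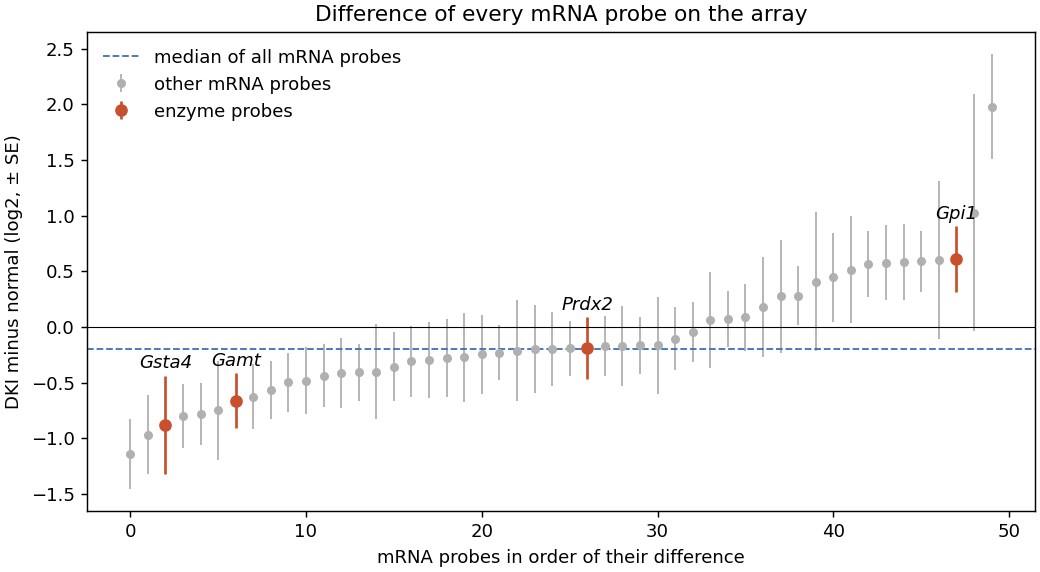
Difference in log2 level, DKI minus normal, of each of the 50 mRNA probes in order of size, with the standard error from limma (3 arrays per group); the dashed line is the median of all probes (-0.19). Gsta4 (-0.88) and Gamt (-0.66) sit toward the lower end, Prdx2 (-0.19) at the median and Gpi1 (0.61) toward the upper end.

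The ratio of 2 genes on the same array does not depend on how that array was scaled. Of the 6 pairs, 3 had ratios that did not overlap between the groups, against 260 of all 1225 pairs of mRNA probes (21.2%). Without DKI replicate 3 they were 4 of the 6, against 591 of the 1225 (48.2%). Fewer arrays make non-overlap easier to reach, and separation of a pair was common among mRNA probes. The 4 genes were chosen with their differences known, and the 6 pairs share them. Nothing is therefore read from these shares. The log2 ratio of Gpi1 to Gsta4 was 0.43, 0.19 and 0.13 on normal replicates 1, 2 and 3. For DKI replicates 1, 2 and 3 it was 1.82, 1.16 and 2.25. The lowest DKI ratio thus lay well above the highest normal one. The mean difference was 1.49, so Gpi1 stood 2.81-fold higher relative to Gsta4 in DKI cortex. Without DKI replicate 3 it was 1.24, and against normal replicate 1 alone it was 1.32.

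The log2 ratio of Gamt to Gpi1 was 1.55, 0.90 and 1.51 on normal replicates 1, 2 and 3. On DKI replicates 1, 2 and 3 it was -0.19, -0.08 and 0.42. All DKI arrays had lower ratios than all normal arrays. The mean difference was -1.27, so Gamt stood 2.41-fold lower relative to Gpi1 in DKI cortex. It was -1.46 without DKI replicate 3 and -1.50 against normal replicate 1 alone.

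The log2 ratio of Gamt to Prdx2 was 1.40, 1.53 and 1.58 on normal replicates 1, 2 and 3. The 3 DKI arrays had 1.14, 1.23 and 0.72. The DKI arrays were again lower throughout, by -0.47 on average, 1.39-fold lower. The difference was -0.32 without DKI replicate 3 and -0.37 against normal replicate 1 alone. In the other pairs the groups overlapped. The mean difference was 0.80 for Gpi1 over Prdx2, -0.69 for Gsta4 over Prdx2 and 0.22 for Gamt over Gsta4. Gpi1 over Prdx2 was 1.14 without DKI replicate 3. Gamt over Gsta4 changed sign without DKI replicate 3, becoming -0.22, and without normal replicate 2, becoming -0.017. Gsta4 over Prdx2 was -0.10 without DKI replicate 3.

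**Figure D4:**
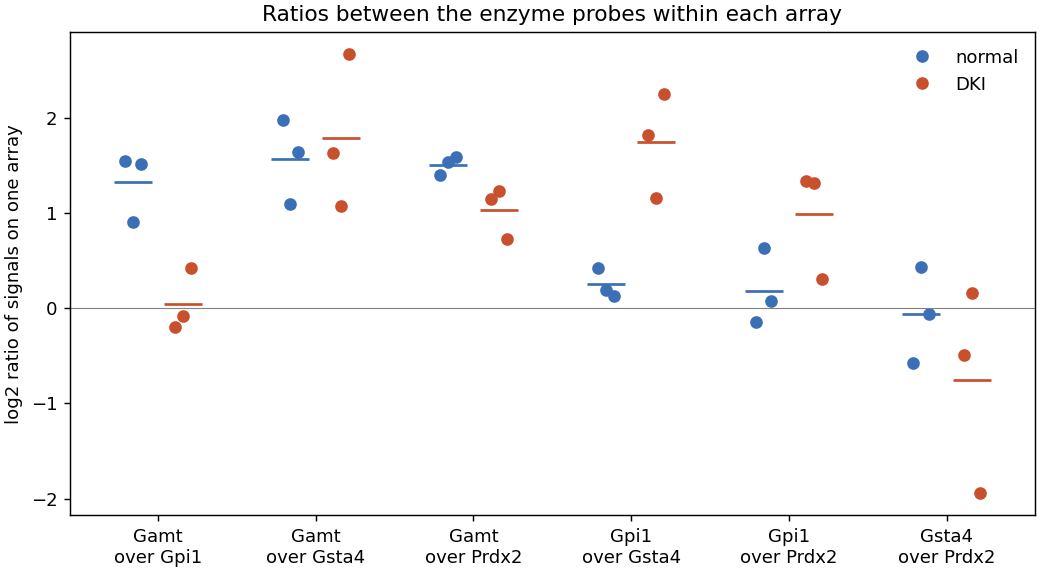
Log2 ratio of the processed signals of each pair of the 4 genes on the same array, with 1 point per array and a bar at the mean of each group (n = 3). Normal and DKI arrays are fully apart for Gamt over Gpi1 (0.90 to 1.55 against -0.19 to 0.42), Gamt over Prdx2 and Gpi1 over Gsta4, and overlap for the other pairs.

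The profiles of other mRNA probes with a symbol, 43 for each gene, were compared with each of the 4 as the root mean square distance over the 6 arrays after centring on the probe's own mean. For Gpi1 the closest were Lhfp (0.18 log2 units), Acaa2 (0.20) and Cpt1a (0.32), which both serve the burning of fatty acids in mitochondria. The median distance of Gpi1 to all of them was 0.69. Lhfp lay only 0.063 and 0.086 above the negative control mean on normal replicates 1 and 3, so its distance rests in part on values near background. Cpt1a lay 0.62 above that mean on normal replicate 3. Close to Gamt were Duox1 (0.15), an enzyme that makes hydrogen peroxide, and Tm9sf1 (0.17), against a median of 0.42. In both of these the DKI arrays lay below the normal arrays without overlap, as in 9 (18%) of the 50 mRNA probes. That follows largely from choosing them by closeness to Gamt, and nothing is read from it. For Prdx2 the closest were Rab5a (0.062), a regulator of early endosomes, the transcription factor Lhx1 (0.062) and Duox1 (0.16), against a median of 0.34. Rab5a was dim on the normal arrays, at 0.58 to 1.03 above the negative control mean. For Gsta4 they were the myelin protein Mbp (0.24), the peroxisome membrane protein Pex11a (0.36) and Gabrg1 (0.39), a receptor subunit, against a median of 0.77. Mbp was at or below the negative control mean on 4 of the 6 arrays, so its distance describes background rather than a measured profile. Among the 4 genes themselves, Gamt and Prdx2 were closest (0.29) and Gpi1 and Gsta4 farthest apart (0.82). All distances share the 6 arrays, their scaling and DKI replicate 3. Without that array the closest to Gpi1 were again Lhfp, Acaa2 and Cpt1a, whereas for Gamt they became Chgb (0.060), Alkbh4 (0.069) and Mzb1 (0.070). For Prdx2 they became Lhx1 (0.053), Rab5a (0.066) and Taf1a (0.071), and for Gsta4 Mbp (0.17), Gabrg1 (0.22) and Duox1 (0.31).

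No other enzyme of the same pathways could be set beside the 4. The array's mRNA probes covered 1 of 10 genes listed for creatine synthesis, transport and kinases, 1 of 33 for glycolysis and gluconeogenesis, 1 of 23 glutathione transferases and 1 of 26 genes of peroxide defence, in each case the gene described here. Of NRF2 and its targets 1 of 15 was measured, and of lipid aldehyde detoxification 1 of 9, both times Gsta4. Genes that supply methyl groups for creatine synthesis (13 listed) and those of glucose transport, the polyol and the pentose phosphate pathway (19 listed) had no mRNA probe here. Neither had any of the markers of kidney cell types, immune cells, red blood cells, hepatocytes or tubule injury, 10 lists in all. The labelled tissue, and the share of blood that bears on Prdx2, were therefore not tested with these probes.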

How the data were processed

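Total RNA was amplified with random primers and labelled with Cy3, per the labels' protocols, and each sample was hybridised to 1 one-colour array. Deposited values are spot intensities from Agilent Feature Extraction 11.0.1.1, background-subtracted and not normalized between arrays, per the file headers. The authors' table of circRNA values holds none of these probes and was not used. Log2 processed signals were averaged over spots and scaled to the 75th percentile of circRNA probes. Normexp alternatives used median spot and background signals with an offset of 50, since the files hold no mean spot signal. Scaling to the mean of the 15 negative control probes, and no scaling, were added after seeing the data. All 50 mRNA probes were fitted with limma 3.58.1 (R 4.3.3) and p-values adjusted over the 50 by Benjamini-Hochberg. The fit was checked on simulated data. Symbols came from RefSeq (GRCm38.p6) for 44 of the 50 probes. With 3 arrays per group, that number limits the precision, and the spread may be technical.

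Members, gene lists and alternatives were chosen with earlier results of these data known. Named genes were the 4 members, the 3 probes with the closest profile to each, and measured list genes. One probe that this rule names is not reported here. Replicate numbers were not taken to pair the arrays. Deviations of same-numbered arrays correlated at -0.41, 0.39 and -0.095, which shows no steady pairing but cannot settle whether there is any. Scan 1 held normal replicate 1 and all DKI arrays, and scan 2 normal replicates 2 and 3, per the file headers. An array code in the headers, whose meaning is not given there, was read as the slide within a scan, so the slide block sets DKI replicate 1 against normal replicate 1.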

Additional observations from a re-analysis of the deposited data

How the results depend on the processing

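Gpi1 kept a positive and Gsta4 a negative difference under all alternatives run with 6 arrays, and Gamt a negative one under all but 1. On the circRNA percentile scale, leaving out any 1 array did not change the sign of Gpi1, Gsta4 or Gamt. Scaled to the negative control probes, an alternative chosen after seeing the data, Gamt turned to 0.12 and Prdx2 to 0.60, while Gpi1 became 1.40 and Gsta4 -0.097 (0.25 with DKI replicate 3 left out as well). Leaving out 1 array gave -0.73 to -0.54 for Gamt, -1.31 to -0.49 for Gsta4, 0.48 to 0.82 for Gpi1 and -0.39 to -0.016 for Prdx2. Gamt became -0.49 with normexp and the 75th percentile or quantile normalization, -0.87 with a slide block and -0.27 without scaling, also chosen after seeing the data. Gpi1 became 1.00 and Prdx2 turned to 0.20 without scaling, and Prdx2 became -0.61 with a slide block. All slide block values rest on DKI replicate 1 against normal replicate 1 alone. With the scan as a block the differences were -0.64, 0.86, -0.45 and -0.27 for Gamt, Gpi1, Gsta4 and Prdx2. The replicate block left the 4 differences as they were (-0.66, 0.61, -0.88 and -0.19), as a balanced block must. Among ratios, Gpi1 over Gsta4 became 0.99 with normexp; with a slide block Gamt over Gpi1 became -1.74, Gamt over Prdx2 -0.26 and Gpi1 over Prdx2 1.48, and Gsta4 over Prdx2 turned to 0.086. Gamt over Gsta4 turned to -0.18 with the scan as a block and -0.35 with a slide block. Leaving out 1 array gave -1.48 to -1.15 for Gamt over Gpi1, -0.22 to 0.58 for Gamt over Gsta4, -0.57 to -0.32 for Gamt over Prdx2, 1.24 to 1.79 for Gpi1 over Gsta4, 0.62 to 1.14 for Gpi1 over Prdx2 and -1.15 to -0.10 for Gsta4 over Prdx2. The count of mRNA probes called became 5 when scaled to the negative control probes, 1 with the replicate block and 1 without scaling, and 0 to 13 with 1 array left out, 13 without DKI replicate 3. The causes were not tested. All member spots were well above background. Signal over background limits Gsta4 on DKI replicate 3 most. Gsta4 there lay 1.92 above the mean log2 signal of the negative control probes, the lowest of the members on any array.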
